A study of Mus musculus with 12 samples.

Results

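The surface and secreted markers of adipose progenitors followed here in 3T3-L1 cells were 10 genes: Pdgfra, Pdgfrb, Cd34, Ly6a, Dpp4, Thy1, Cd24a, Cd9, Pi16 and Eng. They were chosen by name, 10 of the 55487 genes in the expression table, and each name matched 1 row. 3T3-L1 is a clonal line of mouse fibroblasts used as a model of preadipocytes, since a hormone cocktail makes the cells fill with lipid. The cells had been infected with lentivirus and selected with puromycin. One line carried a scrambled hairpin (shScram), and the other a hairpin (shFto) that lowers Fto, which encodes an RNA demethylase that removes m6A. Both lines were sampled as preadipocytes (Pre), at mitotic clonal expansion (MCE), the round of cell division that follows induction, and at the differentiation stage (Diff), which the labels call mature adipocytes. All MCE and Diff cells had received the adipogenic induction cocktail (MDI), and Diff cells were then kept in insulin. Each of the 6 groups held 2 libraries. The hairpin carried by the sequenced shFto cells is not named, each line is a selected culture of 1 clonal cell line, and nothing states that replicates were separate cultures, so p-values measure only the spread between libraries, which may be technical.

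Adipose progenitors are stromal cells that lie between and around adipocytes and blood vessels. They are sorted by surface proteins, most often PDGFRα, CD34 and Sca-1 (the product of Ly6a), after blood cells and endothelial cells have been removed. Cells with DPP4 and PI16 lie in the interstitium of fat depots and are held to give rise to more committed preadipocytes, while CD24 has been used to mark an early progenitor subset and CD9 to separate fibrogenic from adipogenic progenitors. Thy1 (CD90) and Eng (CD105, endoglin) belong to the classical panel of mesenchymal stromal markers.

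Expression was given as TPM, which corrects for transcript length and sets every library to one total, so the depth behind each value is unknown. Genes were kept for testing where 2 or more of the 12 libraries reached 1 TPM, which left 15968. Changes were tested by limma on log2(TPM + 1) with Benjamini-Hochberg adjustment, and a change was called at an adjusted p under 0.05. That scale understates the change of low genes. Of the 10 markers 9 passed this filter, and Dpp4 did not. Cd34 passed it only through shScram libraries. Fto itself lay between 52.7 and 73.5 TPM in the 6 shScram libraries and between 5.51 and 7.47 TPM in the 6 shFto libraries. One library is labelled in conflict: replicate 1 of shScram at Diff has a title naming shScram and a treatment entry naming the knockdown. It was placed by its title, and it held 73.5 TPM of Fto. The replicates of shScram Pre stood apart from each other, with a correlation across genes of 0.939 against 0.990 to 0.993 in the other groups. As for the labelled cell type, the summed level of 6 fibroblast genes lay between 5520 and 11100 TPM in all libraries. The summed level of 9 adipocyte genes rose from 21.7 to 26.2 TPM in shScram Pre to 1150 to 1200 TPM in shScram Diff, but was 174 to 195 TPM in shFto Diff. In bulk RNA, fewer cells of a type and less RNA per cell cannot be told apart.

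The markers differed widely in level. On the TPM scale, Ly6a, Cd9, Thy1, Pdgfra and Pdgfrb were abundant, with means over the 12 libraries of 513, 427, 298, 235 and 112 TPM. Cd24a and Pi16 were low, with means of 7.44 and 7.49 TPM. Eng and Cd34 were near the filter, with means of 1.84 and 0.765 TPM. Dpp4, the protease that defines interstitial progenitors, was listed at 0 in 10 libraries and at 0.0520 and 0.0427 TPM in the shScram Diff libraries.

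**Figure D1:**
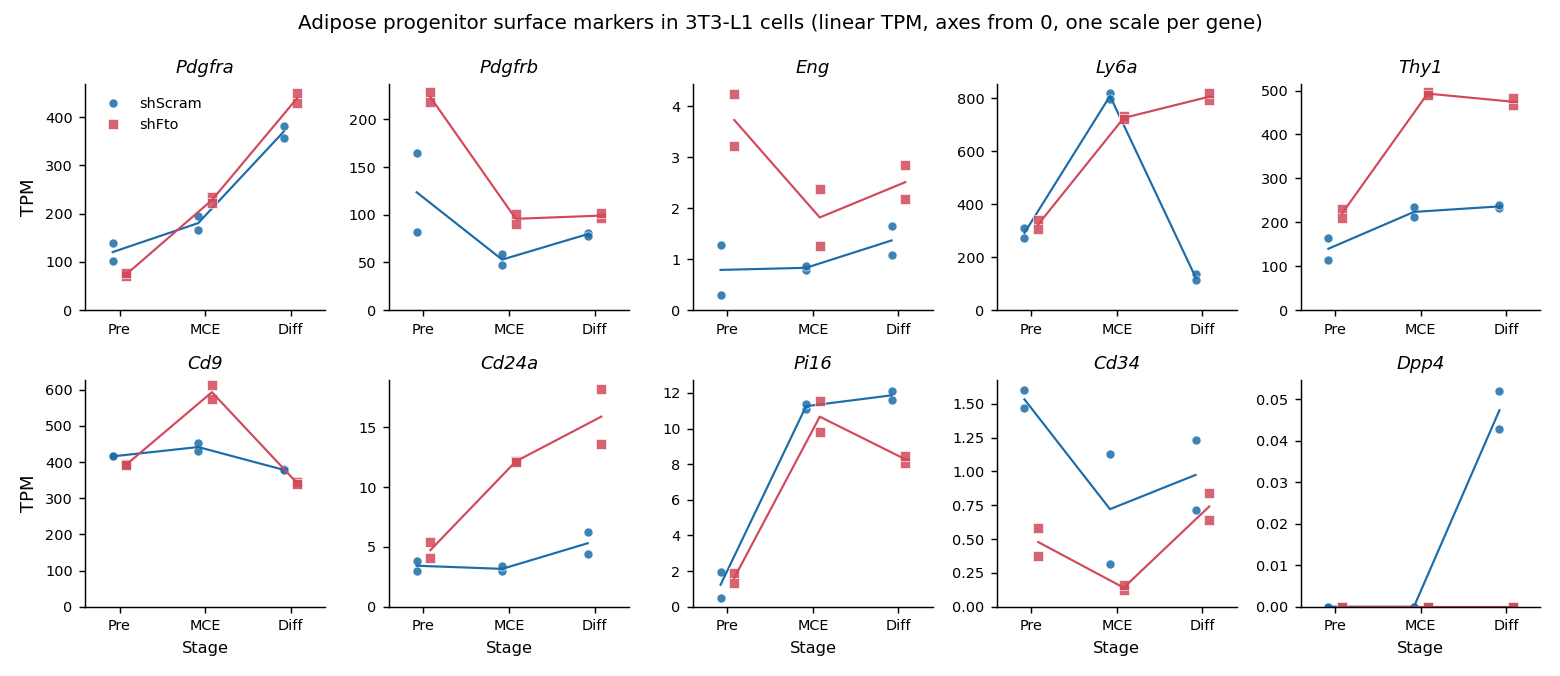
TPM of each marker in every library (points, 2 per group) and the group mean (lines), by stage, for shScram (circles) and shFto (squares), on a linear axis from 0 with its own scale for each gene. Ly6a fell to 135 and 114 TPM at Diff in shScram but stood at 793 and 820 TPM in shFto, and Cd24a and Thy1 lay higher in shFto at MCE and Diff.

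The differences between the lines at single stages that held under every alternative setting were higher Ly6a in shFto at Diff and higher Thy1 and Cd24a at MCE and Diff. Between shFto and shScram, 3 markers were higher and 2 lower at Pre, where 15.9% of all tested genes were higher and 12.3% lower. At MCE, 3 were higher and 0 lower by limma, against 10.5% and 7.26% of tested genes, and 4 were higher and 1 lower at an unadjusted p under 0.05. At Diff, 3 were higher and 0 lower, also at an unadjusted p under 0.05, against 11.9% and 9.31%. All these shares are for the adjusted threshold in the fit of all libraries. Counts at an unadjusted p or in other fits, here and below, have no share of all genes beside them. Thy1 was the only one of the 9 tested markers called at every stage. The median log2 fold change of the 9 tested markers was 0.30 at Pre, 0.42 at MCE and 0.31 at Diff, beside 0.08, 0.05 and 0.03 for all tested genes. Averaged over the stages, 5 markers were higher (Pdgfrb, Eng, Cd24a, Ly6a and Thy1) and 1 lower (Cd34), against 24.5% and 18.3% of tested genes. Of the single stages, Ly6a was called only at Diff, with values of 0.15 at Pre, −0.16 at MCE and 2.69 at Diff.

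Some of the values at Pre depended on which shScram Pre library was kept, and the data do not show which of them is at fault. Without shScram Pre replicate 2, the values at Pre were −0.89 for Pdgfra, 1.43 for Pdgfrb, 1.86 for Eng, 0.935 for Thy1 and −0.74 for Cd34. Without shScram Pre replicate 1, the values at Pre were −0.46 for Pdgfra, 0.43 for Pdgfrb, 1.04 for Eng, 0.41 for Thy1 and −0.82 for Cd34 (limma adjusted p = 0.00849, 0.0205, 0.0220, 0.00658 and 0.0740), so that the Pdgfrb and Thy1 differences were smaller by over 1.5 times and the Cd34 call was lost. In a fit of the Pre libraries alone, 0 of the markers were called by limma and 3 had an unadjusted p under 0.05. Without shScram Diff replicate 1, whose labels conflict, the values at Diff were 2.82 for Ly6a, 1.21 for Cd24a and 0.98 for Thy1 (limma adjusted p = 8.063e-05, 0.0194 and 0.0266).

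**Figure D2:**
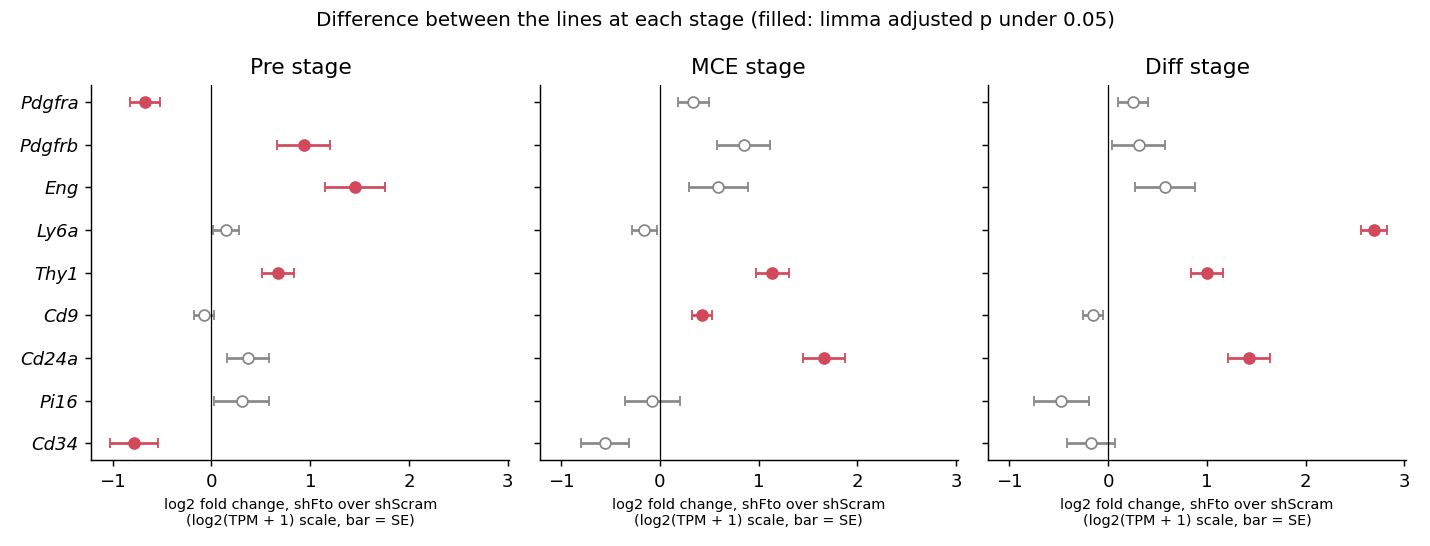
log2 fold change of shFto over shScram at each stage for the 9 tested markers (points), with its standard error from limma (bars), on the log2(TPM + 1) scale. Filled points have an adjusted p under 0.05. Thy1 is filled in every panel, Cd24a at MCE and Diff, and Ly6a at Diff, where its value is 2.69.

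Ly6a encodes Sca-1, a GPI-anchored protein of the Ly6 family and a common marker for sorting mouse adipose progenitors. It lies at chr15:74994877-74998031 of GRCm38, on the minus strand, in a cluster with Ly6c1, Ly6c2 and Ly6i. Of its distinct exonic stretches of 50 bases, 19.0% also occur in exons of another gene. In Ly6c1 15.0% occur, but in Ly6c2 only 0.23%. A read that lies within such a stretch cannot be assigned to one gene, so the split between these genes is uncertain. The length of the sequenced pieces is itself unclear, since the labels give a selection of 40 to 60 nt while the trimming setting in the methods keeps only longer reads. The first 60 coding bases, taken from the GENCODE M21 transcripts on GRCm38, show how close the genes are at the start of the coding sequence only. Capitals mark the bases that differ from Ly6a:
Ly6a: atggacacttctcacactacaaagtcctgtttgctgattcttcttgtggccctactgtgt
Ly6c1: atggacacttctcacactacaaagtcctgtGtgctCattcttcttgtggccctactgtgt
Ly6c2: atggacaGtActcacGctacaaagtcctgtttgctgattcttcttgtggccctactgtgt
Ly6c1 differs from Ly6a at 2 of these bases and Ly6c2 at 3.

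In shScram cells, the Ly6a level was 272 and 312 TPM at Pre, 820 and 798 TPM at MCE and 135 and 114 TPM at Diff. The shFto cells held 342 and 305 TPM at Pre, 732 and 720 TPM at MCE and 793 and 820 TPM at Diff. The lines overlapped at Pre, lay close at MCE and were far apart at Diff. At Diff the mean ratio of shFto to shScram was 6.49, a log2 fold change of 2.69 ± 0.13 (SE, n = 2 against 2, limma adjusted p = 3.051e-06). At Pre the log2 fold change was 0.15 (limma adjusted p = 0.395) and at MCE −0.16 (limma adjusted p = 0.486). The knockdown effect at Diff exceeded that at MCE by 2.85 ± 0.18 on the log2 scale (limma interaction, adjusted p = 0.000750), and 2.49% of tested genes had such a difference in either direction. Both results were called under all 20 alternative settings, including without the library whose labels conflict. Ly6a rose from Pre to MCE in both lines, by 1.47 in shScram and 1.17 in shFto on the log2 scale (limma adjusted p = 6.206e-05 and 0.000239). From MCE to Diff it fell by 2.70 in shScram (limma adjusted p = 1.263e-05), while the change in shFto was 0.15 (limma adjusted p = 0.444).

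The relatives of Ly6a followed it in part. Ly6c1, which encodes a Ly6C surface antigen, held 115 and 130 TPM in shScram Diff and 733 and 781 TPM in shFto Diff. Its log2 fold change at Diff was 2.62 ± 0.13 (limma adjusted p = 3.665e-06), but at MCE it was lower in shFto by −0.78 (limma adjusted p = 0.00398), with −0.68 without shFto MCE replicate 2 (limma adjusted p = 0.0511). The ratio of Ly6a to Ly6c1 was not fixed, and ran from 0.875 in a shScram Diff library to 2.80 in a shFto MCE library. Ly6c2 rose at Diff by 1.92 and fell at MCE by 1.02 (limma adjusted p = 0.000195 and 0.00686), the latter by 0.84 without shFto MCE replicate 2 (limma adjusted p = 0.0712). Ly6e, another GPI-anchored Ly6 protein, stood at 164 and 189 TPM in shScram Diff and 591 and 508 TPM in shFto Diff, a log2 fold change of 1.63 ± 0.20 (limma adjusted p = 0.000544).

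**Figure D3:**
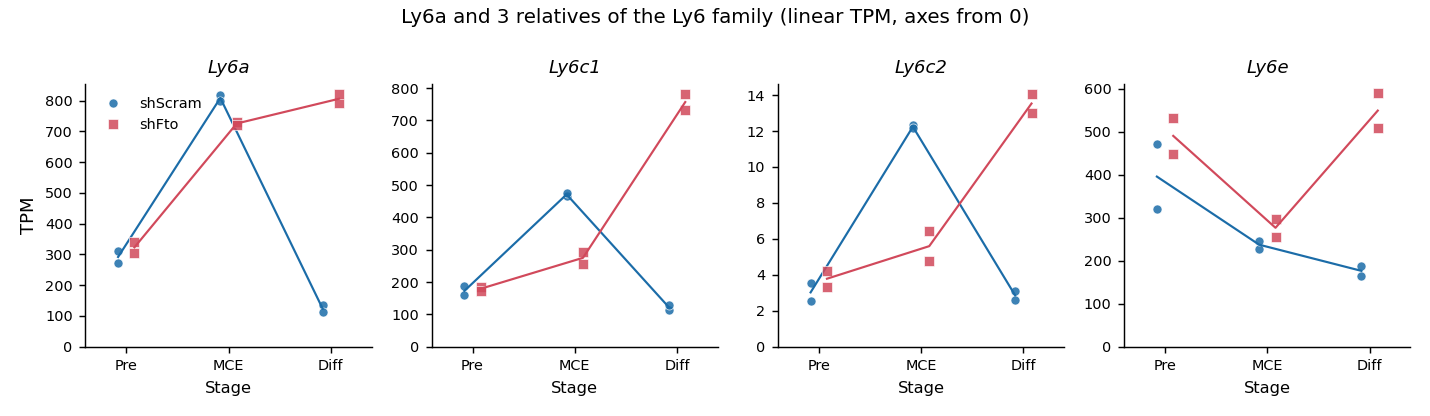
TPM of Ly6a and 3 relatives in every library (points) and the group mean (lines), by stage, for shScram (circles) and shFto (squares), on linear axes from 0. At Diff the shFto libraries lie above the shScram libraries for all 4 genes, while at MCE Ly6c1 and Ly6c2 lie lower in shFto.

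Thy1 (CD90), a GPI-anchored immunoglobulin-like protein of fibroblasts and stromal cells, lies at chr9:44043384-44048579. In shScram cells the level was 115 and 165 TPM at Pre, 212 and 235 TPM at MCE and 233 and 240 TPM at Diff. With the Fto hairpin it was 230 and 210 TPM at Pre, 497 and 489 TPM at MCE and 467 and 482 TPM at Diff. The lines did not overlap at any stage. The mean was 1.58 times higher in shFto at Pre, 2.21 times at MCE and 2.01 times at Diff. The log2 fold changes were 0.67 ± 0.16, 1.14 ± 0.16 and 1.00 ± 0.16 (limma adjusted p = 0.0190, 0.00180 and 0.00283). The calls at MCE and Diff held under all 20 alternative settings. The call at Pre was lost without shFto Pre replicate 1 (log2 fold change 0.61, limma adjusted p = 0.116) or replicate 2 (0.74, limma adjusted p = 0.0656).

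Cd24a encodes CD24, a small, heavily glycosylated GPI-anchored protein, and lies at chr10:43578284-43584265. The shScram libraries held 3.85 and 3.00 TPM at Pre, 2.96 and 3.37 TPM at MCE and 4.39 and 6.22 TPM at Diff. The corresponding shFto values were 4.08 and 5.37 TPM at Pre, 12.2 and 12.1 TPM at MCE and 13.6 and 18.2 TPM at Diff. The lines came close at Pre and were well apart afterwards. The mean ratio of shFto to shScram was 3.84 at MCE and 3.00 at Diff, with log2 fold changes of 1.66 ± 0.21 and 1.42 ± 0.21 (limma adjusted p = 0.000967 and 0.00174). At Pre it was 0.37 (limma adjusted p = 0.205). Both calls held under all 20 alternative settings. The effect at MCE exceeded that at Pre by 1.29 ± 0.30 (limma interaction, adjusted p = 0.0451), where 5.11% of tested genes had such a difference in either direction. This difference was called under 5 of 20 alternative settings, and leaving out any shScram MCE, shScram Diff or shFto library raised its adjusted p to between 0.0575 and 0.168 by limma.

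The receptors of platelet-derived growth factor moved in opposite directions at Pre. Pdgfra, the receptor that marks stromal progenitors, lies at chr5:75152292-75198215 and overlaps Gm42802 and Gm42803 on the other strand. Control shScram cells held 138 and 102 TPM at Pre, 194 and 166 TPM at MCE and 358 and 382 TPM at Diff. In shFto libraries the level was 71.5 and 76.9 TPM at Pre, 235 and 221 TPM at MCE and 429 and 450 TPM at Diff. The shFto libraries were thus below all shScram libraries at Pre and above them at MCE and Diff. At Pre Pdgfra was lower by −0.67 ± 0.15 (limma adjusted p = 0.0154), but without shFto Pre replicate 1 the value was −0.62 (limma adjusted p = 0.0980) and without replicate 2 −0.72 (limma adjusted p = 0.0599). At MCE and Diff the values were 0.34 and 0.25 (limma adjusted p = 0.175 and 0.296). Without either shScram Pre library these were called, at limma adjusted p of 0.00861 and 0.00862 for MCE and 0.0341 for both at Diff. The effect at MCE exceeded that at Pre by 1.01 ± 0.22 (limma interaction, adjusted p = 0.0335), which was called under 7 of 20 alternative settings. Leaving out any shScram MCE, shScram Diff or shFto library raised this adjusted p to between 0.0636 and 0.143 by limma.

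Pdgfrb, the receptor typical of mural cells and of many stromal cells, lies at chr18:61045150-61085061. Its level in shScram cells was 82.2 and 165 TPM at Pre, 58.4 and 47.5 TPM at MCE and 81.3 and 78.0 TPM at Diff. In shFto cells it was 218 and 228 TPM at Pre, 101 and 90.5 TPM at MCE and 96.8 and 101 TPM at Diff. The shFto libraries were higher at each stage, and the shScram Pre libraries differed from each other about as much as the lines did. Pdgfrb was higher at Pre by 0.93 ± 0.27 (limma adjusted p = 0.0332), with 0.43 and 1.43 without shScram Pre replicate 1 or 2, a call that held under 10 of 20 alternative settings. It was lost without either shFto library of any stage or either shScram Diff library (limma adjusted p from 0.0542 to 0.128). At MCE the value was 0.85 ± 0.27 (limma adjusted p = 0.0601) and at Diff 0.31 ± 0.27 (limma adjusted p = 0.464), and without either shScram Pre library the adjusted p at MCE was 7.341e-05 or 7.502e-05 and at Diff 0.0232 or 0.0234 by limma. Averaged over stages, the difference was 0.70 ± 0.15 (limma adjusted p = 0.00679).

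The ligands of these receptors were tested from a list of 4. Pdgfd was listed at or near 0 in all libraries and was not tested. Pdgfa was higher in shFto at Pre by 1.16 and at MCE by 0.46 (limma adjusted p = 0.000445 and 0.0266). The call at Pre was lost in a fit of only the contrast's libraries (limma adjusted p = 0.175). The call at MCE held under 12 of 20 alternative settings, and was lost without any MCE or shFto Diff library (limma adjusted p from 0.0519 to 0.178) and under both scalings of the libraries (limma adjusted p = 0.0574 and 0.137). Pdgfc was higher at MCE by 2.00, from 11.3 and 9.08 TPM in shScram to 42.8 and 44.1 TPM with the knockdown (limma adjusted p = 3.601e-05), and at Diff by 0.95 (limma adjusted p = 0.00151). Pdgfb was not called at any stage. Of the 3 ligands tested, 1 was higher at Pre, 2 at MCE and 1 at Diff, against 15.9%, 10.5% and 11.9% of all tested genes.

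Eng, a co-receptor for TGF-β and BMP ligands, lies at chr2:32646595-32682669 and overlaps Fpgs on the other strand. In shScram cells the level was 0.296 and 1.28 TPM at Pre, 0.793 and 0.865 TPM at MCE and 1.65 and 1.08 TPM at Diff. The shFto cells held 4.25 and 3.21 TPM at Pre, 1.25 and 2.38 TPM at MCE and 2.18 and 2.84 TPM at Diff. The shFto libraries were higher at each stage, though all values were low. Only at Pre was the difference called, at 1.45 ± 0.30 (limma adjusted p = 0.0111). Without shFto Pre replicate 1 it was 1.29 (limma adjusted p = 0.0821). At MCE and Diff the values were 0.59 and 0.57 (limma adjusted p = 0.232 and 0.224). Of 8 partners of endoglin, ligands and receptors of the TGF-β and BMP pathways, 3 were higher and 1 lower at Pre, 4 and 2 at MCE, and 3 and 2 at Diff. Among all tested genes the shares were 15.9% and 12.3%, 10.5% and 7.26%, and 11.9% and 9.31%. Tgfb1, a ligand, rose in shFto by 2.09, 2.13 and 1.67 at the 3 stages (limma adjusted p = 0.00127, 0.000845 and 0.00239). Tgfbr3, a co-receptor like endoglin, fell by 1.58, 1.54 and 1.04 (limma adjusted p = 0.000110, 7.540e-05 and 0.000458). The calls of Tgfb1 and Tgfbr3 at Pre were lost in a fit of only the contrast's libraries (limma adjusted p = 0.186 and 0.131).

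Cd34, a sialomucin of progenitor and endothelial cells, lies at chr1:194938819-194961279 and overlaps Gm16897 on the other strand. The shScram libraries held 1.47 and 1.60 TPM at Pre, 0.312 and 1.13 TPM at MCE and 0.715 and 1.23 TPM at Diff. With the Fto hairpin it was 0.373 and 0.584 TPM at Pre, 0.120 and 0.162 TPM at MCE and 0.843 and 0.640 TPM at Diff. The lines separated at Pre and MCE and overlapped at Diff. No shFto library reached 1 TPM, the highest being 0.843 TPM at Diff. Cd34 thus passed the filter only through the line where it was higher, so its limma calls are no independent support for a difference. At Pre it was lower in shFto by −0.78 ± 0.24 (limma adjusted p = 0.0428), but this call held under only 6 of 19 alternative settings, and leaving out any single library outside shScram MCE raised the adjusted p to between 0.0522 and 0.189 by limma. Averaged over stages, the difference was −0.50 ± 0.14 (limma adjusted p = 0.0194), with limma adjusted p from 0.0507 to 0.0544 without shScram Diff replicate 2, shFto Pre replicate 1, shFto MCE replicate 1 or shFto Diff replicate 2.

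Cd9, a tetraspanin of many cell types, lies at chr6:125460266-125494791, and 14.4% of its exonic stretches of 50 bases occur in other annotated genes, among them Gm26728 on the other strand. Control shScram cells held 416 and 416 TPM at Pre, 431 and 452 TPM at MCE and 380 and 377 TPM at Diff. The corresponding shFto values were 394 and 392 TPM at Pre, 574 and 612 TPM at MCE and 344 and 339 TPM at Diff. Cd9 stayed within 339 to 612 TPM, with the shFto MCE libraries highest. The difference there was 0.42 ± 0.10 (limma adjusted p = 0.0210), and the adjusted p was 0.0819 to 0.170 by limma when any MCE library was left out and 0.0668 under median-ratio scaling of the libraries. At Pre and Diff the values were −0.08 and −0.15 (limma adjusted p = 0.563 and 0.348). The effect at MCE exceeded that at Pre by 0.51 (limma interaction, adjusted p = 0.0864), and the effect at Diff fell below that at MCE by −0.57 (adjusted p = 0.0832).

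Pi16, a secreted peptidase inhibitor of interstitial fibroblasts, lies at chr17:29317680-29330593 and overlaps AC162182.1 on the other strand. Its level in shScram cells was 0.495 and 1.97 TPM at Pre, 11.1 and 11.4 TPM at MCE and 12.1 and 11.6 TPM at Diff. In shFto libraries the level was 1.34 and 1.90 TPM at Pre, 9.81 and 11.5 TPM at MCE and 8.10 and 8.46 TPM at Diff. The lines overlapped at Pre and MCE and lay apart at Diff, with shFto lower. The log2 fold changes between lines were 0.30, −0.07 and −0.47 (limma adjusted p = 0.418, 0.904 and 0.279). At Pre the value was −0.19 without shScram Pre replicate 1 (limma adjusted p = 0.451) and 0.80 without replicate 2 (limma adjusted p = 0.00253). Without either shScram Pre library the limma adjusted p at Diff was 0.0210 or 0.0217.

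From Pre to Diff, more markers were called higher than lower in both lines. In shScram 3 rose and 1 fell of 9 tested, against 13.9% and 13.2% of all tested genes. In shFto 5 rose and 1 fell, against 9.84% and 8.49%. Pdgfra rose in both, 3.08-fold in shScram and 5.93-fold in shFto by the ratio of mean TPM (log2 fold changes 1.63 ± 0.15 and 2.55 ± 0.15, limma adjusted p = 9.685e-05 and 1.052e-05). Pi16 rose by 2.61 and 1.83 on the log2 scale (limma adjusted p = 0.000204 and 0.00216). Thy1 rose by 0.78 and 1.11 (limma adjusted p = 0.00810 and 0.00181), in shScram not without Diff replicate 2 (0.75, limma adjusted p = 0.0520) and by 0.52 without Pre replicate 1 (limma adjusted p = 0.00117). Ly6a went in opposite directions, with −1.23 ± 0.13 in shScram and 1.32 ± 0.13 in shFto (limma adjusted p = 0.000184 and 0.000180). Cd24a rose in shFto by 1.56 ± 0.21 (limma adjusted p = 0.00112), and in shScram its value was 0.50 ± 0.21 (limma adjusted p = 0.113). Pdgfrb fell in shFto by 1.17 (limma adjusted p = 0.0159), a call lost without any Pre or Diff library of that line (limma adjusted p from 0.0783 to 0.0935), and in shScram its value was −0.54 (limma adjusted p = 0.165), with −1.04 without Pre replicate 1 (limma adjusted p = 7.473e-05) and −0.045 without Pre replicate 2 (limma adjusted p = 0.761).

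**Figure D4:**
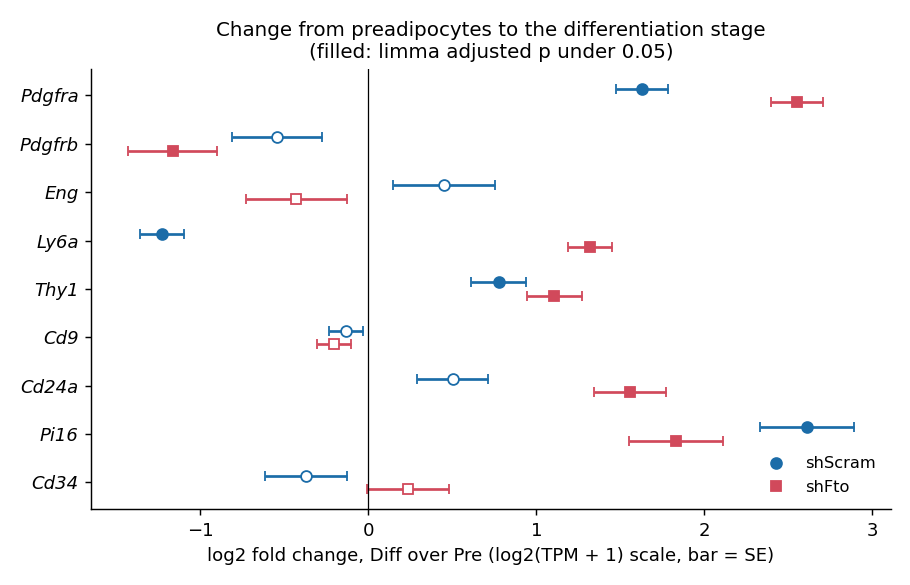
log2 fold change from Pre to Diff (points) with its standard error from limma (bars) for the 9 tested markers in shScram (circles) and shFto (squares), on the log2(TPM + 1) scale, filled where the adjusted p is under 0.05. Pdgfra, Thy1 and Pi16 are filled to the right in both lines, and Ly6a lies at −1.23 in shScram and 1.32 in shFto.

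The intervals were also tested one by one. From Pre to MCE, 4 markers rose and 1 fell in shScram, against 12.2% and 26.9% of tested genes, and 6 rose and 1 fell in shFto, against 8.80% and 19.9%. The median log2 fold change of all tested genes over this interval was −0.17 and −0.18, and median-ratio scaling of the libraries moved a typical gene by 0.21 and 0.22. From MCE to Diff, 1 rose and 1 fell in each line, against 20.0% and 5.22% in shScram and 20.2% and 6.48% in shFto, and here the scaling moved a typical gene by −0.25 and −0.20. Pi16 rose from Pre to MCE by 2.54 in shScram and 2.16 in shFto on the log2 scale (limma adjusted p = 0.000208 and 0.000563), with 2.04 and 3.04 in shScram without Pre replicate 1 or 2. Pdgfrb fell by 1.13 in shScram and 1.22 in shFto (limma adjusted p = 0.0104 and 0.00888), calls that were lost without shScram MCE replicate 2 in one line (limma adjusted p = 0.0776) and without shFto Pre or MCE replicate 2 in the other (limma adjusted p = 0.0586 and 0.0647). Its value in shScram was −1.63 and −0.63 without Pre replicate 1 or 2 (limma adjusted p = 2.682e-06 and 0.000859). In fits of only the contrast's libraries, 0 markers were called by limma for shScram Pre to MCE and 0 for shScram Pre to Diff, where 3 and 4 had an unadjusted p under 0.05, against 3 called for shScram MCE to Diff. Pdgfra continued to rise from MCE to Diff, by 1.04 and 0.95 (limma adjusted p = 0.00197 and 0.00257), and Cd9 fell in shFto by 0.80 (limma adjusted p = 0.000834).

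Over all stages, the difference between lines was also tested by a two-sided exact permutation of the line labels within stages. Pdgfrb, Eng, Cd24a and Thy1 reached p = 0.00926 in this exact test, the smallest the design allows, and Cd34 reached 0.0185. That smallest p arises whenever the lines are separate in the same direction at every stage. These p-values are not adjusted for the number of markers, and the exact test was not run on all genes. By limma, the difference averaged over stages was called higher in 24.5% and lower in 18.3% of all tested genes. Ly6a had a mean difference of 0.90 with an exact permutation p of 0.185, and its shFto libraries lay below the shScram libraries at MCE and above them at Diff.

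By the ranking of the group means, the order of levels differed between markers. For Pdgfra all neighbouring groups were separate, in the order shFto Diff, shScram Diff, shFto MCE, shScram MCE, shScram Pre and shFto Pre. For Ly6a, shScram MCE and shFto Diff overlapped at the top and both Pre groups overlapped lower down, while shScram Diff stood alone at the bottom. For Cd24a, shFto Diff and shFto MCE stood above the remaining groups without overlap.

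The genes whose log2(TPM + 1) most resembled a marker over the 12 libraries, among 10799 genes with a mean TPM of at least 5, are given as a description, since all points share libraries and stages. Cblb and Il1r1 were most like Pdgfra (Pearson r = 0.984 and 0.955). Mast2 and Znfx1 were most like Pdgfrb (0.994 and 0.981), Rnf122 and Fosl2 most like Thy1 (0.986 for both), and Fgf10 and Itm2a most like Cd24a (0.982 and 0.981). Ly6a had lower values, with Gas2l3 at 0.924 and Gm13577 at 0.923. For Cd9 they were Mrpl40 and Pcna (0.963 and 0.958), and for Pi16 Lrp5 and Uqcrh (0.988 and 0.986). Eng was most like Prkd2 and Dus1l (0.962 and 0.953), and Cd34 most like Snord72 and Slc9a9 (0.904 and 0.889).

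Markers of other cell types that could carry these surface proteins were checked. Of 5 endothelial genes none reached 1 TPM in any library, their summed level was 0.375 to 1.24 TPM, and Kdr was listed at 0 throughout. Of 5 blood cell genes, 2 reached 1 TPM in a library, and the summed level was 0.515 to 4.06 TPM, with Adgre1 at 0. Of 5 mural cell genes 1 reached 1 TPM, with Abcc9 and Kcnj8 at 0, and the highest summed level was 1.47 TPM in shScram and 15.2 TPM in shFto. The one that did was Notch3, at 0.941 and 1.30 TPM in shScram Diff and 14.1 and 15.0 TPM in shFto Diff, and its part in the marker differences was not tested. The adipocyte genes moved with the line as well: at Diff 8 of 8 tested were lower in shFto, against 9.31% of all tested genes. Their part in the difference of Ly6a, Thy1 and Cd24a was not tested.

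Other stromal lists were counted in the same way. Of all tested genes, 15.9% were higher and 12.3% lower in shFto at Pre, 10.5% and 7.26% at MCE, and 11.9% and 9.31% at Diff. Of 12 other mesenchymal stromal surface markers 8 were tested, and 3 were higher and 3 lower in shFto at Pre, 3 and 1 at MCE and 2 and 1 at Diff. Procr, the endothelial protein C receptor, was higher at every stage, with 9.06 and 7.93 TPM in shScram Diff and 30.1 and 28.9 TPM in shFto Diff (limma adjusted p = 0.000339). Its call at Pre was lost in a fit of only the contrast's libraries (limma adjusted p = 0.200), and that at MCE without shScram MCE replicate 2 or shFto MCE replicate 1 (limma adjusted p = 0.0660 and 0.0702). Cd44, the hyaluronan receptor, was lower at every stage by −0.60, −0.56 and −0.59 (limma adjusted p = 0.0113, 0.0149 and 0.0101), calls that held under 18, 16 and 17 of 20 alternative settings. They were lost without shFto Pre replicate 1 or in a fit of only the contrast's libraries at Pre (limma adjusted p = 0.0890 and 0.272), any MCE library at MCE (0.0501 to 0.133 by limma) and shScram Diff replicate 2 or either shFto Diff library at Diff (0.0614 to 0.0732 by limma). Of 7 other interstitial progenitor genes 4 were tested and 1 was called higher at each stage, but not the same gene. Wnt2 and Bmp7 were listed at 0. The called gene was Sema3c at Pre and MCE, and its MCE call held under 4 of 20 alternative settings. At Diff the Sema3c mean was 19.0 TPM in shFto and 23.3 TPM in shScram. The gene called at Diff was Cd55, which reached 1 TPM only in shFto Diff (1.28 and 1.09 TPM). Cd55 thus passed the filter only through the group where it was high. Of 19 relatives of the markers 15 were tested, with 5 higher at Pre, 1 higher and 2 lower at MCE and 5 higher and 1 lower at Diff.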

How the data were processed

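RNA-seq libraries of 3T3-L1 cells, 12 in 6 groups of 2, were grouped by their titles. Per the submitters' processing notes and the methods, read pairs were trimmed (Trim Galore 0.6.5) and mapped to GRCm38 (HISAT2 2.1.0). The authors quantified genes with StringTie 2.1.4, and the TPM table they deposited has a column per library. TPM keeps no depth, and 20853 to 24018 genes were above 0 per library. Whether counting used strand is not given in the sources used here. The authors' own tests used DESeq2 1.30.1 on counts, which were not used here.

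The 10 markers were matched by symbol. log2(TPM + 1) was fitted with limma 3.58.1 in R 4.3.3 (group means, trended eBayes, 6 residual degrees of freedom), two-sided, with Benjamini-Hochberg adjustment over 15968 genes and 12 contrasts adjusted separately. The markers and the other lists were chosen with earlier results of these data known. Named genes were all 10 markers, Fto, up to 4 genes per other list with the highest mean TPM plus defining markers at 0, and the 2 most correlated genes per marker; Ly6c2 and Procr were named after their values were seen. Coordinates, exon overlaps and sequences came from GENCODE M21 on GRCm38. The limma fit was checked on simulated data for the knockdown contrast at MCE only, where each gene had the same spread in every group. Alternatives were another pseudocount, filters, scalings, libraries in the fit, a robust spread, the replicate number as a block and each library left out. No 2 libraries held identical values.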

Additional observations from a re-analysis of the deposited data

Results flagged for a closer look

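In 3 cases a marker was picked out because the knockdown effect in one stage differed from that in another by the interaction test. For Ly6a the effect at Diff exceeded that at MCE by 2.85 on the log2 scale (limma adjusted p = 0.000750). For Pdgfra the effect at MCE exceeded that at Pre by 1.01 (limma adjusted p = 0.0335), and for Cd24a by 1.29 (limma adjusted p = 0.0451). The Pdgfra and Cd24a differences were called under 7 and 5 of 20 alternative settings, that of Ly6a under all 20. Among all tested genes, 2.49% had a called difference between Diff and MCE and 5.11% between MCE and Pre, in either direction. With 2 libraries per group, no test for outlying samples was made.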

How the results depend on the processing

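The calls of Cd24a and Thy1 at MCE and Diff, of Ly6a at Diff and of the Ly6a difference between MCE and Diff held under all 20 alternatives. Counts of called markers moved by more than 1.5 times as follows. The cause was not tested, apart from markers that a filter left out. At Pre, a mean TPM of at least 5 left out Eng and Cd34, and 3 of the 5 calls between lines remained. The 5 calls became 3 without a filter and 0 in a fit of only the contrast's libraries. That last fit gave 6 in place of 3 at Diff, 0 in place of 5 for shScram Pre to MCE, 0 in place of 4 for shScram Pre to Diff and 4 in place of 2 for shFto MCE to Diff. The 2 differences of MCE minus Pre became 1 at a pseudocount of 0.1, 0 without a filter, 0 with the contrast's libraries only and 0 with the replicate block; in the last 3 of these, 3 markers had an unadjusted p under 0.05 by limma. The 1 difference of Diff minus MCE became 2 without a filter and 3 with the contrast's libraries only. The replicate block moved no other count by more than 1.5 times. The deviations of same-numbered libraries correlated between −0.290 and 0.172, which cannot show whether same-numbered samples were handled together. Low genes (Cd34, Eng, Pi16 at Pre) are limited by a depth that TPM hides. With 1 library left out, a lone library is assumed to vary like the others. With 1 library left out in turn, the counts ran from 0 to 5 at Pre, 2 to 5 at MCE, 3 to 6 at Diff, 2 to 5 for shScram MCE to Diff, 0 to 7 for the differences of MCE minus Pre and 1 to 3 for those of Diff minus MCE; the highest counts other than at Pre came without a shScram Pre library. Values not called with all libraries turned sign when a library was left out for Pi16, from −0.19 to 0.80 at Pre and from −0.181 to 0.031 at MCE, and for Cd34 at Diff, from −0.36 to 0.02; of these only the 0.80 was called (limma adjusted p = 0.00253). The Pi16 permutation difference was 0.005 at a pseudocount of 0.1.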

Other observations

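Of 5 tested genes of CD142-positive stromal cells, a regulatory population of the adipose stroma, 2 were higher and 2 lower in shFto at Pre, 1 and 2 at MCE and 2 and 1 at Diff, beside 15.9% and 12.3%, 10.5% and 7.26%, and 11.9% and 9.31% of all tested genes. Fmo2, a flavin monooxygenase, was at 1.06 and 1.50 TPM in shScram Diff and at 54.5 and 53.7 TPM in shFto Diff, a log2 fold change of 4.60 (limma adjusted p = 8.894e-07). Mgp, the matrix Gla protein that restrains calcification, went the other way, with 932 and 880 TPM in shScram Diff and 68.3 and 56.5 TPM in shFto Diff (limma adjusted p = 5.308e-06). F3, which encodes CD142 itself, was lower in shFto by −0.61 at Pre and at MCE (limma adjusted p = 0.0256 and 0.0324). These calls held under 16 and 10 of 20 alternative settings. At Pre the call was lost without either shFto Pre library (limma adjusted p = 0.133 and 0.0843), without a filter on low values (0.0501 by limma) and in a fit of only the contrast's libraries (0.295 by limma), and the value was −0.39 without shScram Pre replicate 1. At MCE it was lost without any MCE library or any shFto Pre or Diff library (limma adjusted p from 0.0545 to 0.161), without the filter (0.0638 by limma) and with the replicate block (0.0536 by limma). Its value at Diff was 0.40 (limma adjusted p = 0.119).

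Of 8 tested genes of committed preadipocytes, 4 were higher in shFto at Pre, 2 higher and 4 lower at MCE and 1 higher and 3 lower at Diff. The shares of all tested genes higher and lower were 15.9% and 12.3%, 10.5% and 7.26%, and 11.9% and 9.31% at these stages. Dlk1, which encodes the preadipocyte factor Pref-1, was lower in shFto at MCE by −1.32, from 1182 and 1106 TPM in shScram to 484 and 432 TPM with the knockdown (limma adjusted p = 0.00357). Lpl, lipoprotein lipase, was higher at Pre by 0.91 and at MCE by 1.22 (limma adjusted p = 0.0124 and 0.00324). The Pre call was lost without either shFto Pre library (limma adjusted p = 0.0545 and 0.0758) and in a fit of only the contrast's libraries (0.261 by limma), and the value was 0.60 without shScram Pre replicate 2. Anxa3, of the interstitial list, was at 155 to 164 TPM in the 4 Pre libraries and at 15.9 to 43.0 TPM in the later ones.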
